A study of Homo sapiens with 8 samples.

Results

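The genes described here encode the respiratory chain and ATP synthase, and they were read in human cells given bleomycin, a drug that breaks DNA. They were chosen by symbol: the subunit families of complex I (NDUFA, NDUFB, NDUFC, NDUFS, NDUFV), complex II (SDH), complex III (UQCR), complex IV (COX4 to COX8) and complex V (ATP5F, ATP5M, ATP5P), together with the protein-coding genes of the mitochondrial genome. The rule took 141 of the 46427 gene symbols in the count table. Of these, 128 are nuclear and 13 are mitochondrially encoded. The nuclear members hold 82 protein-coding genes and 46 pseudogenes that share the symbol pattern.

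The respiratory chain sits in the inner mitochondrial membrane. Complexes I and II pass electrons from NADH and succinate to ubiquinone, complex III passes them on to cytochrome c, and complex IV gives them to oxygen. Complexes I, III and IV pump protons as they do so, and complex V lets the protons back to make ATP. Complex II is encoded in the nucleus alone, whereas the other complexes join subunits of both genomes. Mitochondrial genes are transcribed inside the organelle by their own polymerase, POLRMT, and nuclear subunits are made in the cytosol and imported.

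Messenger RNA was read in 8 libraries of wild-type cells derived from H7, a human embryonic stem cell line, which the labels call differentiated type 2 alveolar cells. All cells had been taken to lung progenitors by day 21 and then kept on inserts for 3 days submerged and 7 days at an air-liquid interface. The 4 groups of 2 libraries were control cells, called untreated here, and cells that had 500 µl of bleomycin at 24, 240 or 480 µg/ml on their apical side for 24 hours. The labels name no vehicle for the control cells, give a stock concentration below every dose used, and do not say whether the 2 libraries of a group came from separate cultures, so p-values measure only the spread between these libraries.

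Total counts were 53431773 to 67715984 per library. The label of the cells was only partly matched by their markers. Of 11 type 2 alveolar markers 8 passed the filter on low counts, with LPCAT1 and SFTPB among them. Some that passed were low, such as NKX2-1 and NAPSA with means of 0.923 and 0.221 CPM in untreated cells. SFTPC, the defining surfactant gene, had at most 7 counts in any library. Summed type 2 markers were 163 to 165 CPM (counts scaled by library size and composition) in untreated cells, and 7 hepatic markers, led by AFP, summed to 53166 to 54570 CPM there. The 6 intestinal markers summed to 2758 to 2766 CPM in untreated cells and 2652 to 3040 CPM at 480 µg/ml. That sum was mostly CDH17, with means of 1906 and 2064 CPM, and its members went both ways. CDX2 had a mean of 389 CPM at 480 µg/ml, against 198 CPM in untreated cells. LGALS4 had 53 against 160 CPM, FABP1 77 against 188 CPM and VIL1 263 against 309 CPM. At 480 µg/ml the type 2 sum was 95 to 104 CPM and the hepatic sum 63816 to 68001 CPM, and at 240 µg/ml they were 112 to 115 and 76553 to 83446 CPM. The type 2 sum was mostly LPCAT1, with a mean of 60.2 CPM at 480 µg/ml, against 118 CPM in untreated cells, while ABCA3 of the same list had 28.9 CPM against 13.1 CPM. Summed pluripotency markers were 7.89 to 8.62 CPM at 480 µg/ml, against 36.1 to 41.2 CPM in untreated cells. In untreated cells that sum was mostly LIN28A, with a mean of 33.4 CPM, against 3.95 CPM at 480 µg/ml. DNMT3B had 4.26 CPM at 480 µg/ml, against 5.28 CPM. POU5F1 had 0 counts in every library and NANOG at most 3. Whether the makeup of the cultures had a part in the results below was not tested, and in bulk RNA fewer cells of a type and less RNA per cell cannot be told apart.

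The mitochondrial members lie close together, in places on top of each other, which bears on how their reads can be counted. ATP8 and ATP6, the 2 mitochondrially encoded subunits of ATP synthase, share 46 bases at chrM:8527-8572 of GRCh38, plus strand, in which the end of ATP8 is also the start of ATP6. In the shared stretch the capitals mark the first codon of ATP6.
ATP8 and ATP6: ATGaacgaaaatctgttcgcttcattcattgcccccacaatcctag
ND4L and ND4 share 7 bases and ATP6 and COX3 share 1. ND6 alone among the 13 lies on the minus strand, at chrM:14149-14673. The library kit was a stranded one, but the strand setting of the authors' counting is not given in the sources used here, so reads of ND6 and of RNA from the opposite strand cannot be told apart. Reads of mitochondrial genes can likewise not be told apart from those of near-identical nuclear copies where the counting split them.

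Per unit of length, 12 of the 13 mitochondrial members were above every nuclear member in untreated cells. In untreated cells COX2 had 4743 ± 152 TPM and COX1 4603 ± 290 TPM (SD, n = 2). These are the copper-bearing core subunits of complex IV, and COX2 was above COX1 in only 4 of 8 libraries. ATP6 followed with 3004 ± 121 TPM and ATP8 with 2885 ± 151 TPM, values that differ by less than their SDs. ND6 was the lowest at 286 ± 30.3 TPM, and the next gene up, ND3, was above it in 8 of 8 libraries. ND6 lay within the range of the nuclear members, next to ATP5F1C, a stalk subunit of ATP synthase, with 288 ± 16.4 TPM. The highest nuclear members in untreated cells were ATP5F1B with 802 ± 3.20 TPM and ATP5F1A with 743 ± 25.7 TPM, the beta and alpha subunits of the catalytic head of ATP synthase. COX7C, a small subunit of complex IV, had 695 ± 13.8 TPM.

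Nuclear members with a tissue-specific partner were read almost wholly from the widely expressed form. COX6A2, COX7A1 and COX8C, forms known from muscle or testis, had 0 counts in every library, which allows up to 3 counts or 0.0576 CPM in the shallowest one (counting error only). COX6B2 and COX7B2, testis forms, had at most 2 counts. Their partners COX6A1, COX7A2, COX8A, COX6B1 and COX7B were all tested. Of the 46 pseudogenes 21 had 0 counts everywhere, and 1, UQCRFS1P1, passed the filter on low counts. The filter kept 18303 genes, and with them 90 members: 76 nuclear protein-coding genes, UQCRFS1P1 and all 13 mitochondrial genes.

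Read as whole sums, the 2 genomes differed in how far libraries of a group agreed. The 13 mitochondrial members summed to 11743 and 11870 CPM in the untreated libraries, then 7925 and 10985 CPM with 24 µg/ml, 15634 and 13142 CPM with 240 µg/ml, and 11134 and 23828 CPM with 480 µg/ml. The 128 nuclear members summed to 6100 and 5585, 5688 and 5730, 6613 and 6627, and 6094 and 7747 CPM in the same order of groups. Both sums were higher at 240 µg/ml than in either untreated library. At 480 µg/ml library 2 had the highest value of all 8 libraries for both genomes, while library 1 lay below both untreated libraries for the mitochondrial sum and between them for the nuclear sum.

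**Figure D1:**
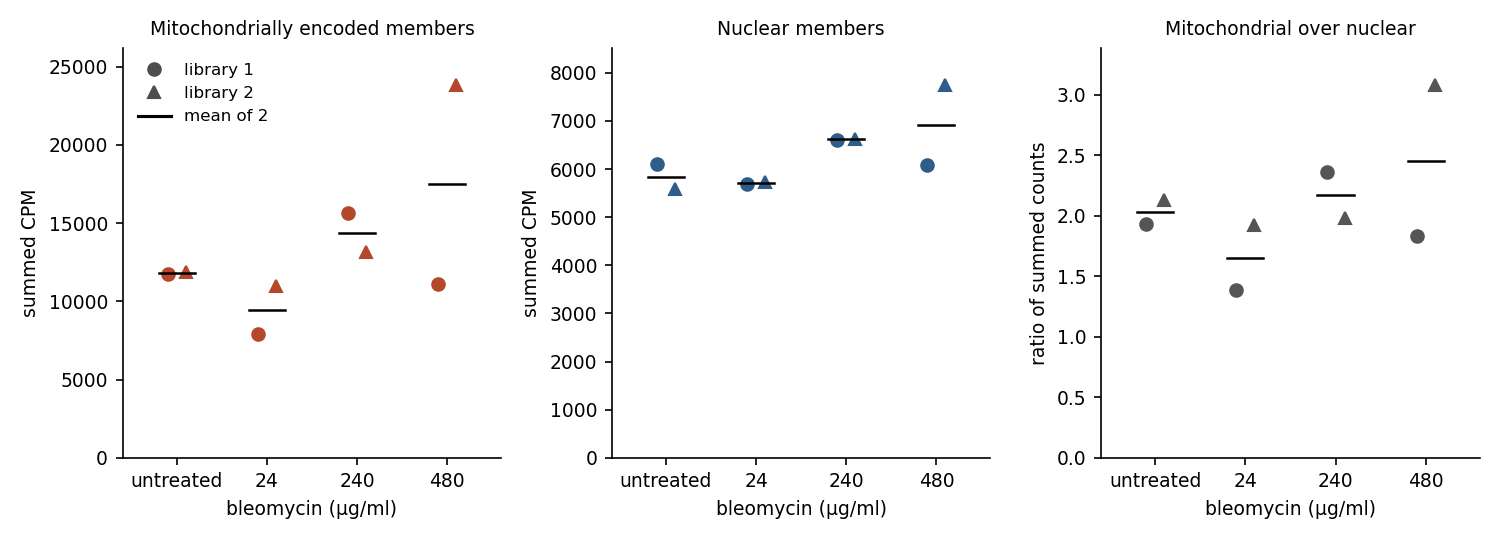
Summed CPM of the 13 mitochondrially encoded members (left) and of the 128 nuclear members (middle), and the ratio of their summed counts (right), by bleomycin dose, untreated at the low end. Circles are library 1, triangles library 2 and lines the mean of 2 libraries; library 2 at 480 µg/ml stands highest in all 3 panels, with a ratio of 3.08.

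At 24 µg/ml no member passed the test against untreated cells (edgeR's quasi-likelihood test, Benjamini-Hochberg adjusted over all 18303 genes, threshold 0.05). No gene of the whole table passed it either, a background of 0%, although 605 genes had an unadjusted p under 0.05 and DESeq2 called 36. None of those 605 was a member, and DESeq2 called 0 members. The 13 mitochondrial members had a median log2 fold change of -0.35, from -0.43 to -0.23, and for 12 of them both treated libraries lay below both untreated ones, which holds for 17.8% of all genes tested. COX1 had 2167 and 2996 CPM at 24 µg/ml, against 3047 and 3120 CPM in untreated cells. The groups did not overlap for COX1, but 24 µg/ml library 2 was near the untreated level and library 1 well below it. Nuclear members had a median of -0.04, with 19 of 77 lower and 1 of 77 higher without overlap (18.6% of all genes were higher).

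At 240 µg/ml 3 nuclear members rose and none fell, against a background of 5.16% of all genes called higher. The 3 are 3.90% of the 77 tested, near that background. NDUFB1, an accessory subunit of the membrane arm of complex I, had 19.6 and 19.8 CPM at 240 µg/ml, against 12.1 and 11.5 CPM in untreated cells (log2 fold change 0.74 ± 0.19 SE, adjusted p = 0.0429). NDUFB8, another accessory subunit of that arm, had 65.0 and 71.1 CPM against 45.5 and 40.6 CPM (0.66 ± 0.17, adjusted p = 0.0438). NDUFA4, first named as a complex I subunit and now known as part of complex IV, had 166 and 178 CPM against 121 and 107 CPM (0.60 ± 0.16, adjusted p = 0.0473). In all 3 genes both treated libraries were close together and above both untreated ones.

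The remaining nuclear members leaned the same way at 240 µg/ml without passing the test. Of the 77, 65 had a fold change above 0, with a median log2 fold change of 0.24 against 0.01 over all genes tested, and 52 were higher without overlap where 33.8% of all genes were. NDUFA2, an accessory subunit of complex I, had 43.6 and 43.6 CPM at 240 µg/ml, against 31.6 and 27.2 CPM in untreated cells, with an adjusted p of 0.066. The median was 0.25 for complex I, 0.07 for complex II, -0.00 for complex III, 0.31 for complex IV and 0.15 for complex V. Nuclear members that were lower without overlap were 5, against 32.2% of all genes, led in size by UQCRHL, a low-count copy of UQCRH (-0.41 ± 0.37).

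The 13 mitochondrial members also had a median of 0.24 at 240 µg/ml, from 0.12 for ND1 to 0.42 for ND5. None passed the test with all 8 libraries, by edgeR or by DESeq2, and none had an unadjusted p under 0.05. ND5, the subunit at the far end of the proton-pumping arm of complex I, had 2415 and 1894 CPM at 240 µg/ml, against 1568 and 1664 CPM in untreated cells. For 11 of 13 the groups did not overlap, where 33.8% of all genes tested were higher without overlap. In all 13 it was library 1 that stood higher. The count of called members at this dose differed with the libraries that entered the fit, and the cause was not tested. With the 240 µg/ml and untreated libraries alone, 30 nuclear and 5 mitochondrial members were called higher, where 15.3% of all genes were. Leaving out 480 µg/ml library 1 gave 29 nuclear members (12.5% of all genes called higher) and leaving out its library 2 gave 30 (12.9%), with 0 mitochondrial members in both. Leaving out any single library of the other groups gave 0.

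At 480 µg/ml 20 nuclear members rose and none fell. They are 26.0% of the 77 tested, where 13.9% of all genes were called higher and 13.9% lower. The nuclear median was 0.35 against 0.01 over all genes, and 64 of 77 lay above 0. Of the 77, 39 were higher without overlap, against 31.8% of all genes, and 4 were lower, against 30.3%. In all 20 called genes both treated libraries lay above both untreated ones. The 3 doses were tested against the same 2 untreated libraries, so their results are not independent of each other.

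Complex I held 15 of the 20, of 36 tested nuclear subunits, where 13.9% of all genes were called higher. Every call that was lost without 480 µg/ml library 2, as given below, was among these 15. NDUFB1 led again, with 19.4 and 30.1 CPM at 480 µg/ml, against 12.1 and 11.5 CPM in untreated cells (log2 fold change 1.07 ± 0.19 SE, edgeR adjusted p = 0.0041). NDUFB5, a further accessory subunit of the membrane arm, had 88.1 and 90.6 CPM against 57.2 and 54.6 CPM (0.68 ± 0.12, adjusted p = 0.0047). The 2 treated libraries of NDUFB5 were nearly level, whereas those of NDUFB1 were far apart, with library 2 the higher. NDUFA2 had 42.2 and 60.0 CPM against 31.6 and 27.2 CPM (0.80 ± 0.17, adjusted p = 0.00896), and NDUFB8 had 62.0 and 88.7 CPM against 45.5 and 40.6 CPM (0.81 ± 0.17, adjusted p = 0.00901). Both showed the spread of NDUFB1, with library 1 at about the level of the 240 µg/ml libraries. NDUFB3, of the same arm, rose by 0.58 ± 0.15 (adjusted p = 0.0234).

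By type of subunit, 13 of 29 accessory and 2 of 7 nuclear core subunits of complex I were called higher, where 13.9% of all genes were. The core ones are NDUFV2 and NDUFS3, both of the peripheral arm that takes up NADH. NDUFV2 carries an iron-sulfur cluster and had 79.9 and 93.0 CPM at 480 µg/ml, against 64.7 and 62.7 CPM in untreated cells (0.44 ± 0.12, adjusted p = 0.0276). NDUFS3 had 36.0 and 52.0 CPM against 31.5 and 28.1 CPM (0.56 ± 0.17, adjusted p = 0.0403). By symbol, 6 of 13 NDUFA, 6 of 11 NDUFB and both NDUFC genes were called higher. The NDUFA count includes NDUFA4, which is counted in complex IV elsewhere here. NDUFS1, the largest peripheral subunit, had 106 and 87.0 CPM at 480 µg/ml, against 96.8 and 94.1 CPM in untreated cells, and the groups overlapped. NDUFV1, which binds NADH, had 69.3 and 86.6 CPM against 65.0 and 59.0 CPM, without overlap and with an adjusted p of 0.119.

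Outside complex I the called members were SDHC, NDUFA4, COX6A1, ATP5F1A and ATP5PD. SDHC, a membrane anchor of complex II, had 141 and 150 CPM at 480 µg/ml, against 106 and 98.9 CPM in untreated cells (0.50 ± 0.11, adjusted p = 0.0113). SDHA and SDHB, the flavin and iron-sulfur subunits of complex II, were not called. SDHA had 109 and 132 CPM against 132 and 123 CPM, which overlap, and SDHB had 52.3 and 60.0 CPM against 47.5 and 43.0 CPM, which do not. NDUFA4 had 161 and 221 CPM against 121 and 107 CPM (0.75 ± 0.16, adjusted p = 0.00889), and COX6A1 had 184 and 281 CPM against 159 and 138 CPM (0.65 ± 0.18, adjusted p = 0.0293). For both complex IV genes library 2 was the higher treated library.

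No nuclear member of complex III was called at 480 µg/ml, of 9 tested, where 13.9% of all genes were called higher. Their median log2 fold change was -0.02. The 9 count UQCRHL and leave out CYC1, cytochrome c1, which the symbol rule does not take. CYC1 was not called (-0.19 ± 0.21), with overlap, and was at 0.10 without 480 µg/ml library 1 and -0.58 without library 2. UQCRC1, a core protein of complex III, had 135 and 186 CPM at 480 µg/ml, against 184 and 171 CPM in untreated cells. The 2 treated libraries stood on either side of the untreated ones. UQCRFS1, the Rieske iron-sulfur protein, had 66.5 and 82.6 CPM against 79.3 and 72.2 CPM, with the same overlap. UQCRH, the hinge protein of complex III, had 78.2 and 105 CPM against 111 and 107 CPM, just without overlap and with an adjusted p of 0.228. Its reads and those of UQCRHL, a near-identical copy, cannot be told apart where the counting split them.

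Complex IV, with NDUFA4 counted in it, had 2 of 10 tested nuclear subunits called, where 13.9% of all genes were called higher. Its median was 0.46. COX5A, which packs beside the catalytic core, had 69.2 and 93.1 CPM at 480 µg/ml, against 62.5 and 58.3 CPM in untreated cells, and COX6C had 58.5 and 74.5 CPM against 52.4 and 49.7 CPM. Neither pair of groups overlapped, and the adjusted p was 0.0774 for COX5A and 0.0686 for COX6C. Of the widely expressed isoforms, COX7A2 had 79.4 and 113 CPM against 71.8 and 64.0 CPM (0.50 ± 0.17, adjusted p = 0.0517), just outside the threshold where NDUFC2 was just inside (adjusted p = 0.0443). COX7B (0.49 ± 0.18) and COX8A (0.57 ± 0.20) also had groups that did not overlap, and COX6B1, with 79.2 and 128 CPM against 85.8 and 76.8 CPM, overlapped. Complex V had 2 of 17 called, near the background of 13.9%, and a median of 0.12. ATP5F1A had 774 and 852 CPM against 644 and 632 CPM (0.35 ± 0.11, adjusted p = 0.0387), while its partner in the catalytic head, ATP5F1B, had 512 and 600 CPM against 636 and 592 CPM. ATP5F1A did not overlap with its untreated level and ATP5F1B did. ATP5MC1, which encodes the membrane ring subunit, had 16.4 and 25.0 CPM against 21.1 and 18.7 CPM, with overlap. Differences between the complexes were not tested.

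**Figure D2:**
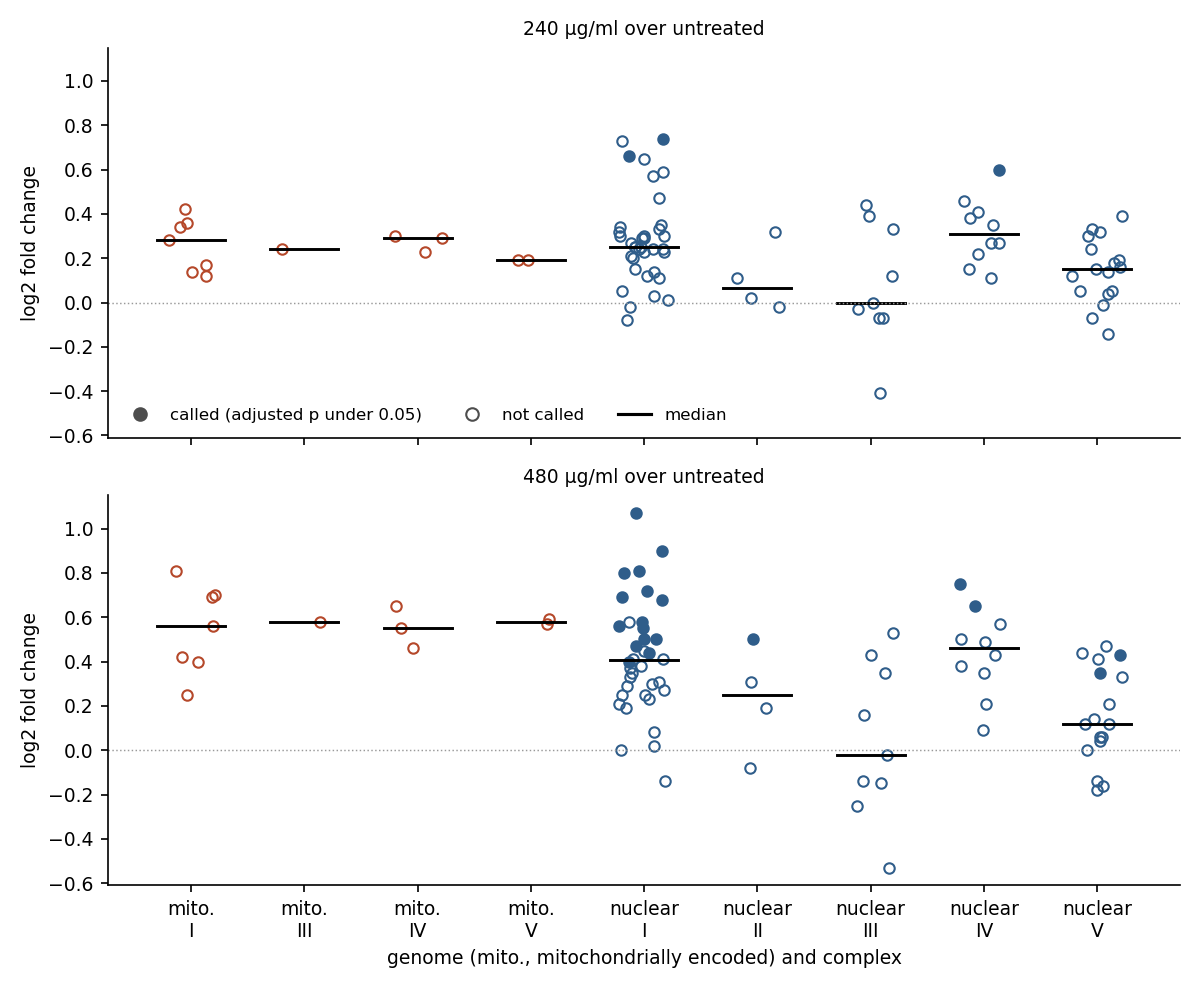
Log2 fold change (y axis) of each tested member over untreated cells at 240 µg/ml (top) and 480 µg/ml (bottom), by genome and complex. Each point is a gene, filled where the adjusted p was under 0.05, and lines are medians; at 480 µg/ml the filled points are 15 of 36 in complex I and none in complex III or among mitochondrial members.

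All 13 mitochondrial members had a positive fold change at 480 µg/ml. With all 8 libraries and the filter on low counts none of the 13 passed edgeR's test. Some did without that filter, a setting for which no share of all genes called is given here. ND5 and ND6 had an unadjusted p under 0.05, and DESeq2 called these 2, where it called 13.8% of all genes higher. Their median log2 fold change was 0.57, from 0.25 for ND1 to 0.81 for ND6. ND6 had 73.8 and 155 CPM at 480 µg/ml, against 62.5 and 68.0 CPM in untreated cells (0.81 ± 0.31, adjusted p = 0.08). Also of complex I, ND5 had 1785 and 3458 CPM against 1568 and 1664 CPM (0.70 ± 0.27, adjusted p = 0.0894). COX1 had 3035 and 5989 CPM against 3047 and 3120 CPM (0.55 ± 0.28, adjusted p = 0.169). In these genes library 1 lay near the untreated level and library 2 far above it. ND1, which joins the 2 arms of complex I, had 350 and 849 CPM against 508 and 500 CPM (0.25 ± 0.36, adjusted p = 0.631). The other complex I subunits ran from 0.40 ± 0.34 for ND2 to 0.69 ± 0.32 for ND4, with ND3 at 0.56 ± 0.28 and ND4L at 0.42 ± 0.26. CYTB, the sole mitochondrially encoded subunit of complex III, had 545 and 1313 CPM against 643 and 598 CPM (0.58 ± 0.33). COX2 was at 0.46 ± 0.32 and COX3 at 0.65 ± 0.33, and for ATP synthase ATP6 was at 0.59 ± 0.35 and ATP8 at 0.57 ± 0.28. Library 2 was higher than library 1 in all 13 genes. Only ND5, ND6 and ATP8 did not overlap with the untreated level, where 31.8% of all genes tested were higher without overlap.

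**Figure D3:**
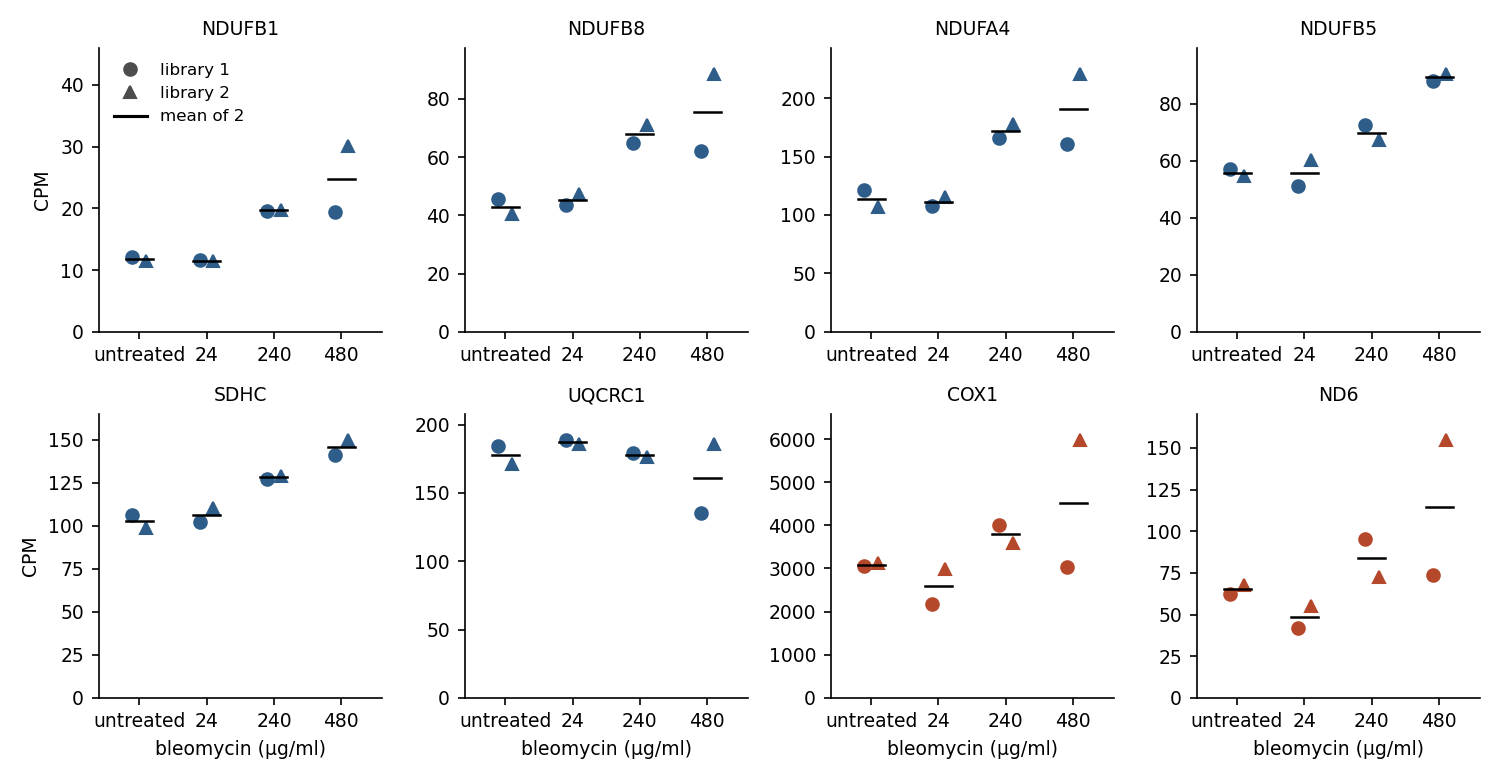
CPM (y axes, each from 0) of 6 nuclear members and of mitochondrially encoded COX1 and ND6 in every library, by bleomycin dose, untreated at the low end. Circles are library 1, triangles library 2 and lines the mean of 2; at 480 µg/ml the libraries of NDUFB5 stand at 88.1 and 90.6 CPM and those of COX1 at 3035 and 5989 CPM.

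The 2 libraries at 480 µg/ml differed over the whole set. Library 2 had 2.14 times the mitochondrial sum and 1.27 times the nuclear sum of library 1, and was higher in 75 of 77 tested nuclear members. The median log2 ratio of library 2 over library 1 was 1.16 for the mitochondrial members, 0.46 for the nuclear members and 0.05 over all genes tested. Without library 1, 56 nuclear members and all 13 mitochondrial members were called higher and none lower at 480 µg/ml, where 19.5% of all genes were called higher, and the mitochondrial median was 0.98. Without library 2, 13 nuclear members were called higher and 5 lower, where 15.7% of all genes were called higher and 16.9% lower, no mitochondrial member was called, and the mitochondrial median was -0.08. The 5 were UQCRH (-0.48), NDUFB10 (-0.47), ATP5ME (-0.47), ATP5MC2 (-0.46) and UQCRC1 (-0.40), with the lone remaining library assumed to vary like the other groups.

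Of the 20 nuclear members called with all libraries, 12 stayed called higher without either 480 µg/ml library. They are NDUFB1, NDUFB5, NDUFA4, NDUFA2, NDUFB8, SDHC, NDUFB3, NDUFV2, COX6A1, NDUFC1, ATP5F1A and ATP5PD. The other 8, all subunits of complex I, lost the call without library 2. Among them were NDUFA3 (log2 fold change 0.42), NDUFS3 (0.27) and NDUFA9 (0.30). NDUFB1 was 0.72 higher on the log2 scale without library 2 (adjusted p = 0.00153), NDUFB5 0.66 (adjusted p = 0.00248) and SDHC 0.45 (adjusted p = 0.00598). Fewer members were called where another library was left out. The count was 5 without untreated library 1 and 1 without untreated library 2, where 4.94% of all genes were called higher in both. It was 7 without any one library of the 24 µg/ml group, where 10.7% were, and 7 without 240 µg/ml library 1 (9.92%) or library 2 (10.1%). It was 4 with the 2 groups alone (7.43%) and 10 with the replicate number as a block (11.6%). In these fits, with a library of another group left out, 2 groups alone or the block, the share of nuclear members called was near or below that of all genes.

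The ratio between the 480 µg/ml libraries was set against the length of the gene. Counting length, the number of bases that the deposited counts and FPKM values imply for a gene, had a median of 919 bases in the nuclear members and 3298 over all genes tested. Across the 77 nuclear members the correlation of log2 counting length with the log2 ratio of library 2 over library 1 was r = -0.63, and across all 18303 genes r = -0.33. Across the 13 mitochondrial members it had the other sign, r = 0.40. These are correlations across genes that share 2 libraries. NDUFA5 and NDUFS1, with counting lengths of 5743 and 12334 bases, were the 2 nuclear members that were lower in library 2. The correlation of length with the fold change over untreated cells was weaker, -0.11 for nuclear members and -0.08 for all genes at 480 µg/ml. Among genes under 1000 bases the median log2 fold change at 480 µg/ml was 0.33 for 41 nuclear members and 0.10 for all 1330 genes. At 240 µg/ml it was 0.24 for these members and 0.12 for these genes. The part of length or RNA quality in the results was not tested.

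**Figure D4:**
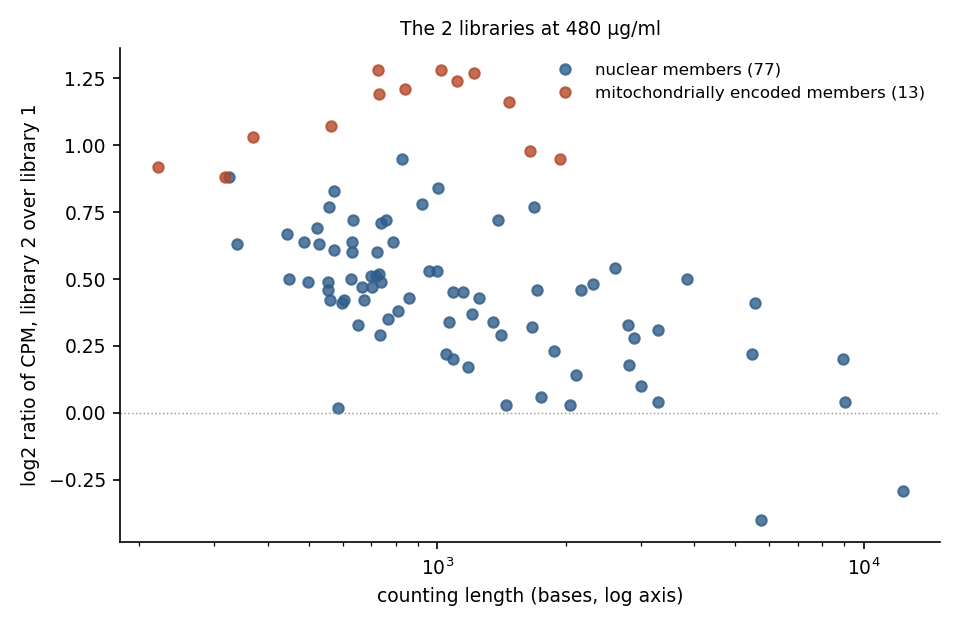
Log2 ratio of CPM in library 2 over library 1 at 480 µg/ml (y axis) against counting length in bases (x axis, log scale) for 77 nuclear and 13 mitochondrially encoded members. Each point is a gene; nuclear points fall with length (r = -0.63), and the mitochondrial points lie at 0.88 or above.

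The ratio of mitochondrial to nuclear member counts does not depend on how libraries are scaled. Untreated cells had a ratio of 1.93 and 2.13, cells with 24 µg/ml 1.39 and 1.92, cells with 240 µg/ml 2.36 and 1.98, and cells with 480 µg/ml 1.83 and 3.08. At every dose the 2 libraries of the treated group differed by more than their mean differed from that of untreated cells. The mean log2 ratio was 0.71 ± 0.326 at 24 µg/ml, 1.11 ± 0.179 at 240 µg/ml and 1.25 ± 0.531 at 480 µg/ml, against 1.02 ± 0.101 in untreated cells (SD, n = 2). At 24 µg/ml both libraries were below both untreated ones, library 2 by the smallest margin, and at 240 and 480 µg/ml the groups overlapped. Within complexes, the ratio at 480 µg/ml was 2.77 and 4.53 for complex I, against 3.09 and 3.53 in untreated cells, and 0.436 and 0.823 for complex V, against 0.461 and 0.493. Library 2 at 480 µg/ml had the highest ratio in complexes I, III, IV and V alike.

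With libraries scaled to the summed nuclear members instead of to all genes, the median of all genes moved to -0.17 at 240 µg/ml and to -0.22 at 480 µg/ml. The mitochondrial median on that scale was -0.32 at 24 µg/ml, 0.06 at 240 µg/ml and 0.28 at 480 µg/ml, and no mitochondrial member was called at any dose. ND1 was then -0.05 at 480 µg/ml.

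Between 480 and 240 µg/ml no member was called, where 0.257% of all genes were, and DESeq2 called 0 members. A single member had an unadjusted p under 0.05, NDUFB5, with 88.1 and 90.6 CPM at 480 µg/ml, against 72.4 and 67.3 CPM at 240 µg/ml (log2 fold change 0.36, edgeR adjusted p = 0.319). It was chosen here after its values were seen. The median was 0.09 for nuclear and 0.34 for mitochondrial members. Leaving out 480 µg/ml library 1 gave 10 nuclear and 8 mitochondrial members called higher, where 2.07% of all genes were. Leaving out its library 2 gave 1 nuclear member higher and 4 lower, where 3.25% of all genes were called higher and 4.52% lower, and 0 mitochondrial ones.

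Many nuclear members are known targets of NRF1, of the ETS factor GABP and of YY1, so their promoters were searched for the core motifs of these factors. Of the 82 protein-coding members 67 had a promoter in RefSeq's GRCh38.p14 table, each 250 bases before to 50 after the start, and 63 of those were tested. Both strands were searched for GCGCA and GCGC with 1 free base between them (NRF1), CCGGAAG (ETS) and AAGATGGCG (YY1). The NRF1 letters were in 16 of 63 member promoters, 25.4%, against 10.3% of 13365 promoters of tested genes. The ETS letters were in 30.2% against 16.7%, and the YY1 letters in 12.7% against 3.30%. Among members the NRF1 letters were in 2 of the 17 called higher at 480 µg/ml and in 14 of the 46 not called. The ETS letters were in 4 of the 17 and 15 of the 46, and the YY1 letters in 2 of the 17 and 6 of the 46. These splits were not tested.

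Shown are the promoter of the member with the smallest p, which holds none of the 3 motifs, those of both called members with the NRF1 letters, and that of the member with the most counts that has them and was not called. Capitals mark the NRF1 and YY1 letters, which do not overlap in these windows. The sequences are from RefSeq: NDUFB1 at chr14:92121657-92121956 (minus), NDUFA3 at chr19:54102605-54102904 (plus), NDUFA9 at chr12:4648864-4649163 (plus) and UQCRC1 at chr3:48609597-48609896 (minus).
NDUFB1: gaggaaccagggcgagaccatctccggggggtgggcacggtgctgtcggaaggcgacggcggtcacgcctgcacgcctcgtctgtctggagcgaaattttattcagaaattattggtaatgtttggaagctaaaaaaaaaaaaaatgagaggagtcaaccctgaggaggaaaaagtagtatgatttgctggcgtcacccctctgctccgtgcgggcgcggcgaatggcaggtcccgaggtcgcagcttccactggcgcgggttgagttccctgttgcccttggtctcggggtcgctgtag
NDUFA3: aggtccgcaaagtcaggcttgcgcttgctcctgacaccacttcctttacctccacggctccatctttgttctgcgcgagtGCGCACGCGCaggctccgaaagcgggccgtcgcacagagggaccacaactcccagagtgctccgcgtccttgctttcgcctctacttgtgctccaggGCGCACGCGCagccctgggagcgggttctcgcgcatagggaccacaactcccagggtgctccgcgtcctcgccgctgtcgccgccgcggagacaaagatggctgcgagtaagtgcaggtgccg
NDUFA9: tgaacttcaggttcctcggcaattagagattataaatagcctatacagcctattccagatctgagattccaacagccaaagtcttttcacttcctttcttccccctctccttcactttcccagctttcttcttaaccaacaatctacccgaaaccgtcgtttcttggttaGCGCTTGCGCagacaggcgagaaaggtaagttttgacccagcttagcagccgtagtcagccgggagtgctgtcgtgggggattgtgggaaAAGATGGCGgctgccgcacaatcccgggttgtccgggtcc
UQCRC1: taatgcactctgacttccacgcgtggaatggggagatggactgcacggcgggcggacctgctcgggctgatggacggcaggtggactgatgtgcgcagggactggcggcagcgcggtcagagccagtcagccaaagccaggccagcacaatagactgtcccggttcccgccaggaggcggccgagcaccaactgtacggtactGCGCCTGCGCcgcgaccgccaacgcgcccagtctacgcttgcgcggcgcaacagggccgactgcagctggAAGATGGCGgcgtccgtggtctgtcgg
NDUFA3, an accessory subunit of complex I with NRF1 letters at 170 and 73 bases before the start, had 16.6 and 29.9 CPM at 480 µg/ml, against 14.6 and 10.3 CPM in untreated cells (0.90 ± 0.26, edgeR adjusted p = 0.0317). NDUFA9, an accessory subunit of the peripheral arm, had 49.2 and 56.7 CPM against 41.6 and 38.5 CPM (0.40 ± 0.13, adjusted p = 0.0432). Neither pair of groups overlapped. A motif found in such a window is a description of the letters and not evidence of binding.

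Of 12 nuclear regulators of respiratory genes, these factors and their coactivators among them, 6 fell and none rose at 480 µg/ml, where 13.9% of all genes were called lower, and the median log2 fold change was -0.56. GABPA, the DNA-binding subunit of GABP, was among the 6 not called (-0.31, edgeR adjusted p = 0.235), with groups that overlapped. Its log2 fold change was -0.63 without 480 µg/ml library 1 and -0.07 without library 2. PPARGC1B, a coactivator of mitochondrial biogenesis, had 2.65 and 2.19 CPM at 480 µg/ml, against 12.6 and 11.4 CPM in untreated cells (-2.31 ± 0.17, edgeR adjusted p = 0.000107). PPRC1, a related coactivator, had 7.61 and 9.43 CPM against 28.5 and 25.6 CPM (-1.66 ± 0.15, adjusted p = 0.00029). GABPB1, which encodes the beta subunit of GABP, had 9.75 and 8.75 CPM against 21.1 and 21.3 CPM (-1.20 ± 0.13, adjusted p = 0.000461). In all 3 genes the treated libraries were close together and far below the untreated ones.

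NRF1 had 8.61 and 8.22 CPM at 480 µg/ml, against 14.1 and 13.8 CPM in untreated cells (-0.73 ± 0.12, edgeR adjusted p = 0.0028). YY1 fell by 0.66 ± 0.12 on the log2 scale (adjusted p = 0.00459), and PPARA, a nuclear receptor of fatty acid oxidation, by 1.01 ± 0.19 (adjusted p = 0.00573). All 6 fell also without either 480 µg/ml library. At 240 µg/ml 5 of the 12 fell, PPARGC1B by 1.72 ± 0.16 (adjusted p = 0.0013), where 5.17% of all genes did. PPARGC1A, the best known coactivator of the family, had 4.63 and 1.94 CPM at 480 µg/ml, against 2.90 and 3.59 CPM, and the groups overlapped. Protein levels and activity of these factors were not measured.

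**Figure D5:**
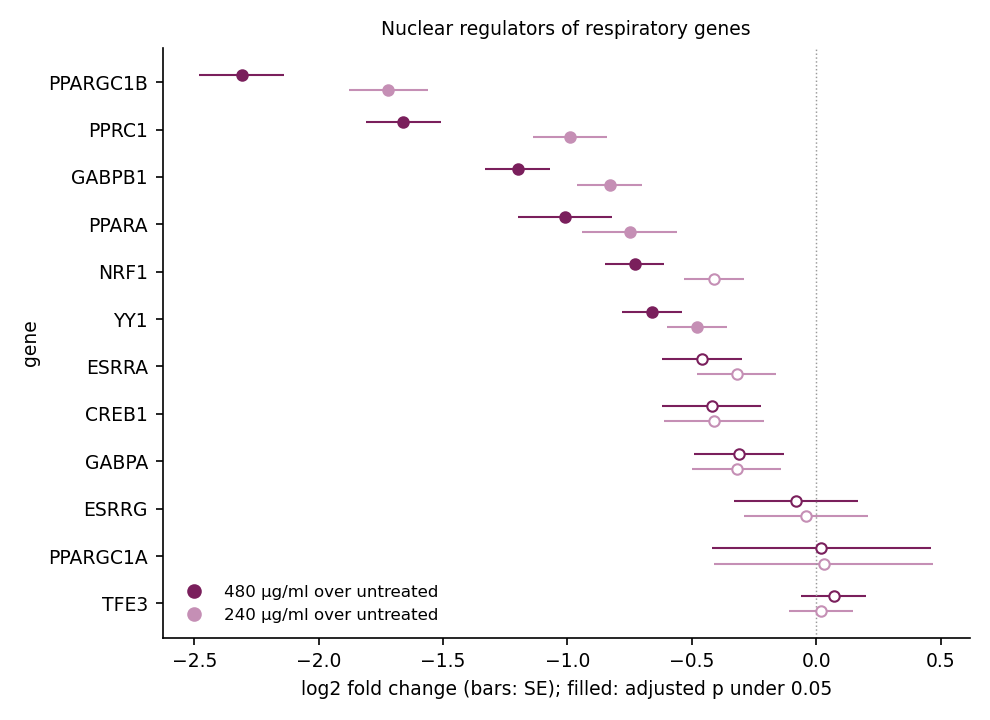
Log2 fold change with SE (x axis) of 12 nuclear regulators of respiratory genes at 480 µg/ml (dark) and 240 µg/ml (light) over untreated cells, filled where the adjusted p was under 0.05. PPARGC1B lies farthest to the left, at -2.31 and -1.72, and no filled point lies to the right of 0.

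Of 53 tested assembly factors 12 rose and 3 fell at 480 µg/ml, where 13.9% of all genes were called higher and 13.9% lower. The 12 are 22.6% of the list, its median was 0.15, and 9 of the 12 and all 3 kept the call without either 480 µg/ml library. SURF1, an assembly factor of complex IV, had 35.3 and 56.1 CPM at 480 µg/ml, against 20.0 and 18.7 CPM in untreated cells (1.24 ± 0.20, edgeR adjusted p = 0.00276). COX20, which helps to mature COX2, had 38.5 and 34.3 CPM against 16.7 and 18.5 CPM (1.05 ± 0.13, adjusted p = 0.000878), and ATPAF2, which acts on the alpha subunit of ATP synthase, rose by 1.07 ± 0.16 (adjusted p = 0.0017). COA7, of complex IV assembly, had 4.77 and 5.66 CPM against 15.6 and 14.6 CPM (-1.53 ± 0.15, adjusted p = 0.000306). NDUFAF4, of complex I assembly, had 2.84 and 3.40 CPM against 8.90 and 8.10 CPM (-1.44 ± 0.17, adjusted p = 0.000665). In none of these genes did the groups overlap.

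Of 24 tested genes that copy and transcribe mitochondrial DNA, 4 rose and 5 fell at 480 µg/ml. With 13.9% of all genes called in each direction, these counts are near the background. TWNK, the mitochondrial DNA helicase, had 4.86 and 6.24 CPM at 480 µg/ml, against 15.6 and 13.7 CPM in untreated cells (-1.40 ± 0.18, edgeR adjusted p = 0.000992). TFAM, which packs and helps to transcribe mitochondrial DNA, had 52.3 and 39.5 CPM against 62.4 and 67.0 CPM (-0.50 ± 0.15, adjusted p = 0.0405), a call that was lost without 480 µg/ml library 2 (-0.31, adjusted p = 0.0556). TFB2M, a transcription factor of the organelle, fell by 0.72 ± 0.14 (adjusted p = 0.00599). POLRMT had 25.0 and 33.4 CPM against 37.5 and 32.0 CPM, with overlap. MPV17, an inner membrane protein needed for mitochondrial DNA upkeep, rose by 0.83 ± 0.17 (adjusted p = 0.00826).

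Of 14 genes grouped here as p53 targets with a mitochondrial role, 8 rose and none fell at 480 µg/ml, where 13.9% of all genes were called higher. At 240 µg/ml 7 rose, where 5.16% of all genes did. Of the 14, 4 stand in other lists too, and control of these genes by p53 was not tested. The median was 0.90 at 480 µg/ml, and all 8 rose also without either 480 µg/ml library. FDXR, which passes electrons to mitochondrial cytochromes P450 and iron-sulfur assembly, had 50.5 and 76.8 CPM at 480 µg/ml, against 7.71 and 7.60 CPM in untreated cells (3.06 ± 0.20, edgeR adjusted p = 0.000105). GLS2, a mitochondrial glutaminase, rose by 3.50 ± 0.27 (adjusted p = 0.000137) and TIGAR, which lowers glycolytic flux, by 1.28 ± 0.12 (adjusted p = 0.000271). RRM2B, the p53-induced ribonucleotide reductase subunit that feeds mitochondrial DNA synthesis, had 113 and 69.9 CPM against 48.1 and 51.9 CPM (0.87 ± 0.21, adjusted p = 0.0165). SCO2, a p53 target that delivers copper to complex IV, had 3.23 and 5.67 CPM against 5.63 and 3.32 CPM, with overlap.

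The counts of the remaining lists at 480 µg/ml stand against 13.9% of all genes called higher and 13.9% called lower. Of 75 mitochondrial ribosomal proteins 8 rose and 4 fell, with MRPL13 at 0.92 ± 0.12 (edgeR adjusted p = 0.00126) and MRPS25 at -0.78 ± 0.14 (adjusted p = 0.00374). Of 14 chaperones and proteases 5 were called. TRAP1 (-0.91 ± 0.13), HSPD1 (-0.85 ± 0.12), HSPA9 (-0.83 ± 0.11) and HSPE1 (-0.55 ± 0.14), chaperones of the matrix, fell, and SPG7, a protease, rose (0.48 ± 0.14). Of 20 genes of mitochondrial RNA processing 2 rose, HSD17B10 and FASTK, and 2 fell, PNPT1 and LRPPRC. Of 13 translation factors MTIF3 (0.39 ± 0.13) and TACO1 (0.58 ± 0.18) rose and C1QBP fell by 0.64 ± 0.14, and the call of TACO1 was lost without 480 µg/ml library 2 (0.31, adjusted p = 0.12). MTIF3, with an edgeR adjusted p of 0.0473, was not called by DESeq2 (0.0545), with the 2 groups alone (0.143) or with scaling to the nuclear members (0.467). Of 19 genes of the tricarboxylic acid cycle and pyruvate dehydrogenase DLAT fell by 0.71 ± 0.13 and PDHB rose by 0.39 ± 0.12. Of 20 glycolytic genes HK1 (0.71 ± 0.13) and ENO2 (0.77 ± 0.17) rose and SLC2A3, a glucose transporter, fell by 0.83 ± 0.21.

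Of 11 subunits and partners outside the symbol patterns 10 were tested, and 1 rose and 1 fell at 480 µg/ml. DMAC2L, a factor linked to ATP synthase, rose (0.76 ± 0.15, edgeR adjusted p = 0.00746) and HIGD1A, which binds complexes III and IV, fell by 0.58 ± 0.15 (adjusted p = 0.0212). COX4I1, the common form of a complex IV subunit, had 189 and 287 CPM at 480 µg/ml, against 232 and 203 CPM in untreated cells. Its low-oxygen form COX4I2 had at most 3 counts in any library and was not tested. CYCS, cytochrome c, had 74.5 and 71.0 CPM against 83.0 and 78.3 CPM, without overlap and not called. NDUFAB1, the acyl carrier protein of complex I, had 29.9 and 35.8 CPM against 30.6 and 25.6 CPM, and ATP5IF1, the inhibitor of ATP synthase, had 65.0 and 94.0 CPM against 72.0 and 65.3 CPM. COX4I1, NDUFAB1 and ATP5IF1 overlapped with their untreated levels. COX7A2L, which joins complexes III and IV, had 118 and 127 CPM against 103 and 89.3 CPM, without overlap and with an adjusted p of 0.0554. NDUFA4L2, a low-oxygen relative of NDUFA4, had at most 14 counts in any library.

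Among 9734 other genes with a mean log2 CPM of at least 3, those whose log2 CPM over the 8 libraries was most like the mean of the 13 mitochondrial members were KLC2 (r = 0.978), GOT2 (r = 0.962), NAXE (r = 0.962), IFI27L1 (r = 0.954) and RBIS (r = 0.954). All share the same 8 libraries, and each was highest in library 2 at 480 µg/ml. GOT2, the mitochondrial aspartate aminotransferase, had 70.6 and 85.7 CPM at 480 µg/ml, against 71.7 and 68.8 CPM in untreated cells.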

How the data were processed

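Messenger RNA of 8 libraries was analysed from the authors' deposited gene counts, with the TPM and FPKM values the authors deposited beside them. Per the submitters' processing notes, the tools were StringTie, HISAT2, Bowtie2 and Trimmomatic, and the build was GRCh38. The annotation release and counting strand are not given in the sources used here. The counts, 53431773 to 67715984 per library, went into edgeR 4.0.16 (R 4.3.3) with TMM scaling, filterByExpr (min.count 10, min.total.count 15) and 1 quasi-likelihood fit of all 4 groups, which left 4 residual degrees of freedom and a biological coefficient of variation of 0.15. P-values were adjusted by Benjamini-Hochberg over all 18303 genes that passed, and calls were made under 0.05. CPM are TMM-scaled, TPM served only to compare levels between genes, and counting length came from the deposited counts and FPKM. Log2 fold changes carry SE, and levels SD over 2 libraries. Limits for counts of 0 are 3 counts and cover counting error only.

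Groups and replicate numbers came from the labels. The members, gene lists and tests were chosen with earlier results of these data known. Genes named were all mitochondrial members, per comparison the 8 called nuclear members with the smallest p, a fixed set of subunits and isoform pairs, and per list the 3 genes with the smallest p at 480 µg/ml and the called one in the other direction. NDUFS3, NDUFA3, NDUFA9, ATP5PD, NDUFC2, UQCRH, UQCRHL and NDUFB10 and the other members lower without library 2 were named after their values were seen. So were LRPPRC, HSPE1, GABPA, ATP5F1C, NDUFA5 and CYC1. Alternatives were DESeq2 1.42.0, limma 3.58.1 on log2(TPM + 1), other filters and scalings, fewer groups, a replicate block and leaving out each library. The fits were tested on simulated data. Tables were made with Python 3.11.15, pandas 2.3.3 and numpy 2.4.6.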

Additional observations from a re-analysis of the deposited data

How the results depend on the processing

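With 1 library left out at a time, genes called among all genes ran from 0 to 24 at 24 µg/ml, 120 to 4982 at 240 µg/ml, 2248 to 7889 at 480 µg/ml and 0 to 1471 between 480 and 240 µg/ml. Nuclear members called ran from 0 to 30 at 240 µg/ml, 1 to 56 at 480 µg/ml and 0 to 10 between these doses, and mitochondrial members from 0 to 13 at 480 µg/ml and 0 to 8 between these doses. The log2 change of the mitochondrial to nuclear ratio ran from -0.54 to -0.08 at 24 µg/ml, -0.03 to 0.22 at 240 µg/ml, -0.15 to 0.60 at 480 µg/ml and -0.24 to 0.51 between 480 and 240 µg/ml. The lone library left in a group was assumed to vary like the others.

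DESeq2 called 36 genes at 24 µg/ml, 7 nuclear members at 240 µg/ml, 2 mitochondrial members at 480 µg/ml, and 324 genes between 480 and 240 µg/ml, against 47 by edgeR. With no filter on low counts, 83 genes were called at 24 µg/ml, and 2907 genes and 7 nuclear members at 240 µg/ml. That setting also called 9 mitochondrial members at 480 µg/ml and 465 genes between 480 and 240 µg/ml. The share of all genes called is not given here for that setting at 480 µg/ml, nor for DESeq2 at 240 µg/ml. Those counts of members are therefore not set against a background. With only the libraries of the 2 groups compared, 14 genes were called at 24 µg/ml, 5399 genes, 30 nuclear and 5 mitochondrial members at 240 µg/ml, 2858 genes and 4 nuclear members at 480 µg/ml, and 0 genes between these doses. Limma on log2(TPM + 1) called 11 genes between 480 and 240 µg/ml. Taken from median log2 CPM over members, the log2 change of the ratio was -0.11 at 240 µg/ml, against 0.10 from sums, and 0.01 at 480 µg/ml, against 0.23 from sums. The causes were not tested.

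Whether replicate numbers pair the libraries cannot be decided here, since each group holds only 2 libraries. Over 9822 genes, same-numbered deviations from the group means correlated at -0.638 (480 µg/ml with untreated), -0.226 (480 with 24 µg/ml) and -0.111 (240 µg/ml with untreated). The other correlations were 0.196 (480 with 240 µg/ml), 0.231 (24 µg/ml with untreated) and 0.235 (240 with 24 µg/ml). With the replicate block, 0 nuclear members were called at 240 µg/ml and 10 at 480 µg/ml, where 11.6% of all genes were called higher. Between 480 and 240 µg/ml it called 8 genes. Crossing the number in the treated group, chosen after seeing the data, called 1023 genes and 0 nuclear members at 240 µg/ml. At 480 µg/ml it called 24 nuclear members, for which no share of all genes is given here.

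Of 1169 single-gene alternatives for 68 genes at 480 µg/ml, 983 kept direction and side of the threshold, 148 lost the call, 27 gained it and 11 turned direction. For 240 µg/ml, with 9 genes, 98 of 153 kept both, 49 lost the call and 6 gained it. Leaving out 1 library at a time, always lowest without 480 µg/ml library 2 and highest without its library 1, ATP6 ran from -0.19 to 1.08, COX1 from -0.02 to 0.95, COX2 from -0.26 to 0.92, COX3 from -0.08 to 1.12, CYTB from -0.19 to 1.07, ND1 from -0.53 to 0.74, ND2 from -0.35 to 0.88, ND3 from -0.04 to 0.98, ND4 from -0.01 to 1.14 and ND4L from -0.09 to 0.78. ND1 was at -0.05 with scaling to the summed nuclear members.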

Other observations

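The mitochondrial genome also encodes 2 ribosomal RNAs and 22 transfer RNAs, which are not among the members. Both ribosomal RNAs rose at 480 µg/ml over untreated cells, RNR1 by 0.65 ± 0.19 (edgeR quasi-likelihood adjusted p = 0.0341) and RNR2 by 0.73 ± 0.19 (adjusted p = 0.02) on the log2 scale. Summed, they had 5090 and 6930 CPM at 480 µg/ml, against 3598 and 3678 CPM in untreated cells, and the groups did not overlap. Neither was called without 480 µg/ml library 2 (adjusted p = 0.0977 for RNR1 and 0.0549 for RNR2). At 240 µg/ml the sum was 5394 and 4324 CPM, and neither gene was called (adjusted p = 0.109 and 0.207). The ratio of ribosomal RNA to the summed mitochondrial members was 0.457 and 0.291 at 480 µg/ml, against 0.306 and 0.31 in untreated cells, so that library 1 had the highest and library 2 the lowest ratio of the 8 libraries. The transfer RNAs summed to 67.6 and 129 CPM at 480 µg/ml, against 71 and 77.1 CPM in untreated cells. How far the selection of polyadenylated RNA captured these RNAs was not tested.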
